A study of Mus musculus with 10 samples.

Results

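A 4160000-base stretch of mouse chromosome 4, from position 39840000 to 44000000 on build mm9, was examined in heart tissue from male mice, in samples the labels call HIPK2 knockout or wild type. Its members are the probes of a 1-colour Agilent expression array that map to this stretch and are not controls, 186 of 56605 probes on the array. The stretch was chosen because probes for Fam205a2 and Ccl21a within it were already known to differ between the genotypes on these arrays, so the knockout and wild-type values of its members are a description. Where a member is said to be past the array-wide threshold, this places it in the fit over all probes and is no independent test of it, least of all for Fam205a2 and Ccl21a. The members carry 126 names, and the first and last of them span positions 40114200 to 43998234.

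The deleted gene, Hipk2, encodes a serine/threonine kinase of the nucleus that phosphorylates regulators of transcription. The knockout group held 5 samples from C57BL/6 mice whose Hipk2 gene carried a CRISPR deletion of 56 bases in its second exon, a frameshift. The wild-type group held 5 samples, and the founders had been bred with C57BL/6 wild-type mice to expand the colony. The labels give 1 deletion allele, no age, no part of the heart and no statement that each sample was a separate mouse or that the wild-type mice were littermates, so any p-value given measures the spread between these samples only. The 3 Hipk2 probes, on chromosome 6, were well above background on all 10 arrays and did not separate the groups, with knockout minus wild type of -0.01 ± 0.09, 0.04 ± 0.17 and 0.11 ± 0.10 (log2, SE). Which transcript an exon deletion leaves behind is not given by these probes, and the genotype rests on the labels.

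The stretch holds one of the duplicated chemokine clusters of the mouse genome. CCL21 and CCL19 are the ligands of the receptor CCR7 and guide T cells and dendritic cells into lymphatic vessels and lymph nodes. The mouse carries several nearly identical Ccl21 genes, some still listed under Gm numbers. CCL27 is a ligand of CCR10, known best from skin, and Il11ra1 encodes the receptor chain for interleukin 11, a cytokine of the interleukin 6 family. Fam205a genes form a little-studied family of their own that lies among these copies. In the RefSeq table, built on GRCm38.p6, 52 genes lie in a row from Il11ra1 to Fam205c, 21 of them protein-coding, and 20 of the 52 are listed as a target by at least 1 probe of this array. Those 20 are listed by only 17 probes, so a probe here often stands for several copies.

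The array file lists up to a few transcript accessions beside each probe, and these define 3 sets of probes that share targets. The first set is linked through Fam205a transcripts and holds 9 probes, 7 of them in the stretch. The probe sequences of its 4 members that were lower in knockout are shown because they are what the array measured there. All 4 are 60 bases long and written 5′ to 3′ as the array file gives them, with no base singled out. The first lies at chr4:41841838-41841897, the second at chr4:42213341-42213400 and the third at chr4:42472710-42472769, all on the plus strand of mm9, and the fourth has no chromosome in the array file.
Fam205a2: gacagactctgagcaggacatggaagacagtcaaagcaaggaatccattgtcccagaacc
ENSMUST00000177565: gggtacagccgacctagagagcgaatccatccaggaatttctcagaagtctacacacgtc
4933409K07Rik: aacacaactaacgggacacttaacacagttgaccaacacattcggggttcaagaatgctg
Gm3893: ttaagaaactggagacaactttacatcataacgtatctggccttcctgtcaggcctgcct
The accessions listed for the Fam205a2 probe belong to Fam205a2, Fam205a1 and Gm3893, so its signal cannot be assigned to 1 of these genes.

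The second set is linked through Ccl21 transcripts and holds 3 probes, named Ccl21a, Gm1987 and Gm13304. The Ccl21a probe lists Ccl21a, Gm1987, Gm13304 and Gm10591. The Gm1987 probe lists Gm1987 and Ccl21a, and the Gm13304 probe lists Gm13304, Gm10591, Ccl21b and Ccl21d. The Gm13304 and Gm1987 probes share an unbroken run of 43 bases. They are shown over 30 aligned bases, at chr4:41775274-41775303 and chr4:42232113-42232142 on the plus strand of mm9, where the capital marks the 1 base that differs.
Gm13304: gccctCcccttgtccttgcacctatgattt
Gm1987: gccctTcccttgtccttgcacctatgattt
The Ccl21a probe lies in another part of the transcript and shares no more than 4 bases in a row with the Gm13304 probe. The third set is linked through Ccl27 transcripts, with 3 probes named Ccl27a and 2 named Gm20878.

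Values are log2 signal relative to the 75th percentile of each array, so a difference of 1 is 2-fold between groups, and levels are not compared between probes. A probe was kept when it was well above background, by the scanner software's own mark, on at least 4 of 5 arrays of 1 genotype. Of the 186 members 131 were kept and 55 were not, and 42 were not well above background on any array. Of the kept members 109 met the condition in both genotypes, 22 through wild type only and 0 through knockout only, and 105 were well above background on all 10 arrays. The 75th percentile of signal was 286 to 460 on knockout arrays and 462 to 542 on wild-type arrays. Spots well above background made up 45.8% to 58.3% of those on knockout arrays and 55.7% to 60.4% of those on wild-type arrays, and its part in the results on dim probes was not tested. Arrays lay on 2 slides. Slide 1 held wild-type replicates 1 and 2 only, both in row 2, and slide 2 held the other 8 arrays. On slide 2, row 1 held wild-type replicates 3 to 5 and knockout replicate 1, and row 2 held knockout replicates 2 to 5. Within slide 2, genotype can therefore hardly be told apart from row.

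Along the stretch, the kept probes with the largest differences were Fam205a2, 4933409K07Rik, ENSMUST00000177565, Car9, Ccl19 and Ccl21a, all near its middle but Car9. Car9, a carbonic anhydrase named after its values were seen, differed by -1.13 ± 0.52 on a probe well above background on 2 of 5 knockout and 5 of 5 wild-type arrays, short of the threshold, and by 0.27 ± 0.30 on its other probe. In the 2 adjoining windows of 520000 bases from 41920000 to 42960000, the median size of the difference was 0.84 over 5 kept probes, the Ccl21a probe's own value, and 0.51 over 3 kept probes, the Phf24 probe's own value. In the other 6 windows it lay between 0.09 and 0.22. These medians rest on few probes, include probes kept through wild type only, and hold the probes the stretch was chosen on, so nothing is read from them. Over all kept members the median difference was 0.04, against 0.01 over all 30693 kept probes of the array. In an equally long stretch above it, from 44000000 to 48160000, 1 of 81 kept probes passed the array-wide threshold, and below it, from 35680000 to 39840000, 0 of 2 did.

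Across the array, 4.44% of kept probes passed the threshold of 0.05 on limma's Benjamini-Hochberg adjusted p, 1.69% higher and 2.76% lower in knockout. That split, 518 higher and 846 lower, was 3423 and 1094 after normexp correction. It was 871 and 647 with slide row as a block, a fit added after the data were seen, and 128 and 92 with no filter on dim probes. Among probes well above background on all 10 arrays it was 764 and 779. In the stretch 12 of 131 did, 7 higher and 5 lower. With normexp correction these were 18 and 3, and with slide row as a block 10 and 5. With the replicate number as a block they were 0 and 4, and with a score of atrial marker genes as a covariate 0 and 2. Nothing is read from these counts because the stretch was chosen on the same contrast. Among kept probes with duplicated-family names, that is Gm133 numbers, Ccl21, Ccl27 or Fam205a, 3 of 6 passed, 2 higher and 1 lower. Among the 125 kept probes with other names 9 passed, 5 higher and 4 lower, against 15 and 2 with normexp correction, 0 and 3 with the replicate block and 0 and 1 with the atrial score. Other names go by prefix only and are not all single-copy genes. They include Gm1987, Gm20878, Gm21075, 4933409K07Rik and ENSMUST00000177565, which belong to the 3 sets above. The 4 lower include 4933409K07Rik and ENSMUST00000177565. The knockout and wild-type values did not overlap for 16 of the 131 kept members, against 8.5% of kept probes on the array. Of the 125 probes with other names, 72.8% differed by less than 0.3 in size, against 69.5% of all kept probes.

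Of the 3 probes named Fam205a2, 1 was kept, and on it no knockout array and every wild-type array was well above background. This probe, which also lists Fam205a1 and Gm3893, read -5.92, -6.05, -5.32, -5.88 and -5.83 in knockout, well above background on 0 of 5 arrays. It read -3.43, -2.89, -2.91, -3.50 and -2.91 in wild type, well above background on 5 of 5 arrays. The groups did not overlap, and the highest knockout value lay far below the lowest wild-type value. Knockout averaged -5.80 ± 0.28 and wild type -3.13 ± 0.31 (SD, n = 5 each). Because knockout arrays give only a bound, the fall is stated as at least 1.79-fold, the wild-type mean set against the lowest signal that still counted as well above background on the knockout arrays. The fitted difference was -2.67 ± 0.17 (log2, SE), and -0.49 ± 0.11 after normexp background correction. It reuses the values the stretch was chosen on, and the probe was kept through wild type only.

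The same pattern was seen for 2 further members of the Fam205a set, both named here after their values were seen. 4933409K07Rik, a transcribed pseudogene in RefSeq, read -7.11, -6.09, -5.28, -5.90 and -6.84 in knockout and -3.91, -3.46, -4.04, -4.15 and -3.80 in wild type. No knockout array and all 5 wild-type arrays had it well above background, and it was at least 1.07-fold lower in knockout (fitted difference -2.37 ± 0.31). ENSMUST00000177565, a transcript with no gene symbol in the tables used, read -7.20, -6.07, -5.31, -5.93 and -6.88 in knockout and -4.78, -3.99, -4.04, -4.69 and -4.14 in wild type. It was well above background on 0 of 5 knockout and 4 of 5 wild-type arrays, and its fitted difference was -1.95 ± 0.33, with no fold bound above 1. On each of knockout arrays 2, 3 and 4, the 3 probes read nearly the same value, near -6.1, -5.3 and -5.9, which is the floor of those arrays and has no order. After normexp correction both missed the threshold, with differences of -0.18 ± 0.13 for 4933409K07Rik and -0.09 ± 0.11 for ENSMUST00000177565. ENSMUST00000177565 also missed it with the atrial score in the fit (-1.78 ± 0.39) and with no filter on dim probes (-1.95 ± 0.35).

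Across the whole array, 110 of 56605 probes, or 0.194%, were well above background on 0 knockout and 5 wild-type arrays, and 0 probes had the reverse pattern. The Fam205a2 and 4933409K07Rik probes are 2 of them and the only 2 in the stretch. ENSMUST00000177565 belongs to the 322 probes, or 0.569%, that were well above background on 0 knockout and at least 4 wild-type arrays. The equally long stretch above held 2 such probes.

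Other probes of the Fam205a set were mixed. Gm3893, a transcribed pseudogene that RefSeq orders between Il11ra1 and Fam205c, has no chromosome in the array file and is no member, and it was named after its values were seen. It read -4.30, -4.55, -3.60, -4.61 and -4.63 in knockout and -2.08, -2.19, -2.0, -2.92 and -2.24 in wild type, with a difference of -2.05 ± 0.23 with no overlap. Of the knockout arrays 1 had it well above background, and of the wild-type arrays 5, so the size of the difference rests on knockout values mostly not above background. After normexp correction it was -0.63.

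Gm21075, a member named after its values were seen, shares a listed transcript with this set but did not follow it. The first 30 bases of its probe, at chr4:42089599-42089628 on the plus strand of mm9, are given for comparison with the 4 sequences above.
Gm21075: agctgctctctatcatgaaaaggtgacctc
It read -3.14, -2.93, -2.67, -3.28 and -3.30 in knockout and -3.19, -3.26, -2.87, -3.40 and -2.61 in wild type. It was well above background on all 10 arrays, the groups overlapped, and the difference was 0.00 ± 0.17. The lower signal was not shared by every probe tied to these transcripts.

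The other 2 probes named Fam205a2 were too dim to be kept. The probe that starts at 41838111 lists Fam205a2, Fam205a1 and 4933409K07Rik. It was well above background on 1 of 5 knockout and 3 of 5 wild-type arrays and averaged -5.22 ± 0.78 over knockout and -5.18 ± 0.85 over wild-type arrays (SD, n = 5 each). The probe that starts at 41836929 was well above background on no array. A probe for ENSMUST00000121728 in the same set, chosen after its values were seen, was also well above background on no array. Gm4262, likewise chosen, lies on chromosome 16 and lists a 4933409K07Rik transcript, and it differed by -0.07 ± 0.09.

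Tissue markers differed among the samples, and their part in the results was not tested. The blood endothelial score averaged 1.94 ± 0.11 over knockout arrays and 2.28 ± 0.06 over wild-type arrays, without overlap (SD, n = 5 each; two-sided exact permutation p = 0.00794, the smallest this design allows, adjusted p = 0.0583 over 11 marker lists). The cardiomyocyte score averaged 8.63 ± 0.20 over knockout and 8.19 ± 0.26 over wild-type arrays (exact permutation p = 0.0159, adjusted p = 0.0583). The macrophage score averaged 1.68 ± 0.25 over knockout and 2.04 ± 0.10 over wild-type arrays (exact permutation p = 0.0159, adjusted p = 0.0583). None of the 11 scores passed after adjustment. The fat score averaged -4.24 ± 0.81 over knockout and -2.34 ± 1.67 over wild-type arrays (exact permutation p = 0.0397, adjusted p = 0.0728). The atrial score, the mean of Myl7, Myl4 and Sln, ranged from -2.75 to 1.56 in knockout and from -3.02 to 4.81 in wild type. It averaged -0.45 ± 1.74 over knockout and 2.25 ± 3.12 over wild-type arrays (exact permutation p = 0.127, adjusted p = 0.2). Wild-type replicates 2 to 5 lay above every knockout array and wild-type replicate 1 below all of them. With the atrial score in the fit the Fam205a2 difference was -2.52 ± 0.19, and among the 8 arrays of slide 2 it was -2.69 ± 0.20. Of 5 markers of germ cells and testis, 1 was kept, Tnp1, with a difference of -0.15 ± 0.13, and Ddx4 was well above background on no array.

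Ccl21 signal was higher in knockout on all 3 probes of its set. Ccl21a read 3.34, 3.48, 2.80, 3.80 and 3.18 in knockout and 2.45, 2.75, 2.29, 2.36 and 2.54 in wild type. Every knockout value lay above every wild-type value, although the gap between the closest samples was small. Knockout averaged 3.32 ± 0.37 and wild type 2.48 ± 0.18 (SD, n = 5 each), a difference of 0.84 ± 0.17 (log2, SE) or 1.79-fold, on values that were used to choose the stretch. The array file places the probe at 42231835 to 42231894 on the plus strand of chromosome 4 in mm9. RefSeq's GRCm38.p6 table has Ccl21a on the minus strand. The builds were not compared here, so which Ccl21 copy lies at the probe's position is not identified.

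Gm13304, at 41775274 to 41775333, read 5.09, 4.99, 4.57, 5.37 and 4.75 in knockout and 4.24, 4.56, 4.02, 4.27 and 4.42 in wild type. The groups just failed to touch, with a difference of 0.65 ± 0.16 past the threshold. Gm1987, at 42232105 to 42232164 and named after its values were seen, read 4.82, 4.58, 4.23, 5.11 and 4.39 in knockout and 4.06, 4.33, 3.57, 3.80 and 4.00 in wild type. These groups overlapped by 1 wild-type sample, replicate 2, and the difference of 0.67 ± 0.18 missed the threshold. On all 3 probes knockout replicate 4 was the highest of its group and knockout replicate 3 the lowest. After removal of each genotype's mean, the 3 pairs of probes correlated at r of 0.89 to 0.96 over 10 arrays, a description of probes that share targets and arrays. Given the shared accessions, these 3 readings may be of the same transcripts and are not 3 independent genes.

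The promoters of 2 of these copies are printed because they are nearly identical, which not all Ccl21 promoters are. They are the 250 bases before the annotated start in RefSeq's GRCm38.p6 table, at chr4:42773992-42774241 on the minus strand for Ccl21a and chr4:42114537-42114786 on the plus strand for Gm13304, with substituted bases in capitals.
Ccl21a: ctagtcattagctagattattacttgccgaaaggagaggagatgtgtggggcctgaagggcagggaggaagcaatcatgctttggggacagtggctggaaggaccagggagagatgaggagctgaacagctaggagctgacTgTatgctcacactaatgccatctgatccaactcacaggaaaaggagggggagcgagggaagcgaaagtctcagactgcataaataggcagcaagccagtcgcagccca
Gm13304: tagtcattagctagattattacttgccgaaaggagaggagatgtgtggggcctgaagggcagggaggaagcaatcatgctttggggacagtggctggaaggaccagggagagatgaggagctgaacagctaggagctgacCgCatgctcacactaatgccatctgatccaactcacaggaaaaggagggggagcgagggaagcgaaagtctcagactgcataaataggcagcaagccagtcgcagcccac
They differ by 2 substitutions and by a shift of 1 base in the annotated start. Over the full 300-base windows, Gm13304 and Gm10591 were identical and Ccl21d differed from both by 1 base, while Ccl21a lay 4 edits from Ccl21d and 5 from Gm13304. Ccl21b stood apart, 161 edits from Gm13304 and 162 from Ccl21a. Neither printed promoter holds TATAAA or CCAAT on either strand, motifs found in 12.4% and 33.8% of 32851 RefSeq promoters over the same 250 bases. Only these exact strings were searched. A near match to the first, CATAAA, stands close to the annotated start in both and was not counted.

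Where the Ccl21 probes lay against the threshold depended on the arrays and the fit. With the atrial score in the fit the differences were 0.86 for Ccl21a and 0.69 for Gm13304, and with the replicate number as a block 0.84 and 0.65, all short of the threshold. The Ccl21a difference stayed between 0.72 and 0.97 with each array left out in turn, but it passed the threshold in 5 of those 10 fits and was lost without knockout replicate 1 or 2 or wild-type replicate 3, 4 or 5. Gm13304 kept its call in 2 of the 10, without knockout replicate 3 or 5, with differences of 0.55 to 0.75. Among the 8 arrays of slide 2 the differences were 0.92 ± 0.20 for Ccl21a and 0.72 ± 0.18 for Gm13304, neither past the threshold.

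Of 6 lymphatic endothelial markers, all kept, 1 fell, Pdpn (-0.68 ± 0.13, limma adjusted p = 0.0208), and none rose. Mmrn1 (0.67 ± 0.27, adjusted p = 0.153) and Reln (0.33 ± 0.17, adjusted p = 0.235) had the sign of Ccl21, so the members went both ways and the mean score does not describe each of them. That score averaged -0.45 ± 0.17 over knockout arrays and -0.36 ± 0.22 over wild-type arrays (SD, n = 5 each; two-sided exact permutation p = 0.524, adjusted p = 0.64 over 11 marker lists). With that score in the fit the Ccl21a difference was 0.93 ± 0.13. The T cell score, over Cd3e, Cd3d, Cd4 and Lck, averaged -1.50 ± 0.14 over knockout arrays and -1.96 ± 0.35 over wild-type arrays (two-sided exact permutation p = 0.0238, adjusted p = 0.0655), while Cd3g and Cd8a were well above background on no array. The part of T cells in the Ccl21 result was not tested, and in whole tissue a change in cell number cannot be told apart from a change in RNA per cell.

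Ccl19, the other CCR7 ligand, has its probe placed close to the Ccl21a probe but had the opposite sign. It read -2.78, -1.82, -2.49, -2.54 and -1.0 in knockout and -1.64, -0.81, -1.52, -0.99 and -0.91 in wild type. The groups overlapped because knockout replicate 5 lay within the wild-type range, and the difference of -0.95 ± 0.32 did not pass the threshold. Without knockout replicate 5 the difference was -1.24 ± 0.23 and passed. The lymph node stromal markers Cxcl13, Madcam1 and Il7 were too dim to be kept.

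Genes of the CCL21 and CCL27 receptor pathways outside the stretch gave no call. Of 9 such genes 5 were kept and 0 passed. Ccr7, the receptor for CCL21 and CCL19, had a difference of 0.39 ± 0.16 (limma adjusted p = 0.155). The scavenging receptor Ackr4, which binds these ligands, had 0.40 ± 0.19 (adjusted p = 0.218), and Ltbr, the lymphotoxin receptor upstream of lymphoid chemokines, had -0.37 ± 0.11 (adjusted p = 0.0772). Ackr2 had -0.60 ± 0.18 (adjusted p = 0.0738) and Ltb 0.46 ± 0.36 (adjusted p = 0.444), so the kept genes went both ways. Ccr10, Ccl28, Cxcl13 and Lta were not kept. At an unadjusted p under 0.05 there were 8013 probes on the array.

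The Ccl27 set showed smaller values, and none of its 5 probes passed. The 3 Ccl27a probes had differences of 0.00 ± 0.13, 0.11 ± 0.12 and 0.29 ± 0.11. The last, at 41720610, lists Ccl27a alone, and read 0.00, -0.24, -0.38, 0.02 and -0.21 in knockout and -0.67, -0.49, -0.25, -0.39 and -0.46 in wild type, with overlap. The other 2 also list Ccl27b and Gm13306. The Gm20878 probes, named after their values were seen, differed by 0.16 ± 0.11 and 0.48 ± 0.15, and the second had no overlap between groups. In RefSeq the promoters of Gm20878, Gm21953 and Gm21586 are identical over 300 bases, as are those of Gm13306 and Ccl27b.

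Il11ra1 was bright and did not pass. It read 5.49, 5.13, 5.21, 5.46 and 5.14 in knockout and 4.91, 4.77, 5.18, 5.16 and 5.23 in wild type. The groups overlapped, with a difference of 0.24 ± 0.12, and the probe also lists Gm13305. Among its partners, all 6 were kept and 0 passed. Il6st, the shared signalling chain, differed by -0.21 ± 0.09 (limma adjusted p = 0.168) and Il11, the ligand, by -0.37 ± 0.16 (adjusted p = 0.168). Cntfr, the ciliary neurotrophic factor receptor within the stretch, had a difference of 0.57 ± 0.38 on a probe well above background on 2 of 5 knockout arrays.

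Outside the duplicated families, 7 named genes passed the threshold, each on 1 probe. Dnaic1, a dynein chain of motile cilia, read 0.10, 0.20, 0.29, 0.10 and 0.01 in knockout and -0.69, -0.95, -0.59, -0.31 and -0.46 in wild type, a difference of 0.74 ± 0.12. All knockout samples lay above all wild-type samples. Its probe, at 41585121 on the plus strand, stands next to 2 probes of Enho on the minus strand. Enho encodes adropin, a secreted peptide of energy metabolism, and its probes, named after their values were seen, differed by 0.38 ± 0.10 and 0.37 ± 0.10. Neither Enho probe passed, and neither overlapped between groups.

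Phf24, a PHD finger protein known from brain, read -0.64, -0.72, -0.63, -0.62 and -0.76 in knockout and -1.11, -1.24, -0.98, -1.29 and -1.28 in wild type. The knockout values were tightly grouped and all above wild type, with a difference of 0.51 ± 0.09. Ube2r2, a ubiquitin-conjugating enzyme, had 0.99, 1.12, 0.89, 1.09 and 0.95 in knockout and 0.54, 0.51, 0.68, 0.74 and 0.69 in wild type, a difference of 0.37 ± 0.08 without overlap. Its second probe differed by 0.19 ± 0.08 and did not pass.

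B4galt1, a galactosyltransferase of the Golgi, was lower in knockout. It read 3.23, 3.45, 2.95, 3.26 and 3.34 in knockout and 3.97, 3.89, 3.75, 3.82 and 3.72 in wild type, with no overlap and a difference of -0.58 ± 0.10. Its second probe differed by -0.26 ± 0.17 and did not pass. Glipr2, a Golgi-associated protein, had values of -1.56, -1.24, -1.51, -1.56 and -1.22 in knockout and -0.95, -0.60, -0.84, -0.61 and -0.72 in wild type, a difference of -0.67 ± 0.11 without overlap. B4galt1 and Glipr2 lie toward opposite ends of the stretch, outside the duplicated copies.

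Olfr159 and Fancg rested on fainter or less uniform signal. Olfr159, an odorant receptor gene, had means of -4.0 ± 0.23 in knockout and -4.75 ± 0.28 in wild type, a difference of 0.75 ± 0.15, but its probe was well above background on 2 of 5 knockout and 4 of 5 wild-type arrays. Fancg, a subunit of the Fanconi anaemia core complex and named after its values were seen, had a difference of 0.60 ± 0.15 on 1 probe, whose groups overlapped. Its other 2 probes differed by 0.01 ± 0.11 and -0.20 ± 0.18. Calls of Dnaic1, Phf24, B4galt1 and Glipr2 held with each array left out in turn, while those of Ube2r2 and Fancg each held in 1 of 10 such fits and that of Olfr159 in 5 of 10. Ube2r2 and Fancg lost the call without any of the 5 wild-type arrays. Knockout replicate 3 for Ube2r2 and knockout replicate 1 for Fancg were the only arrays whose removal kept it. Olfr159 lost it without knockout replicate 4 or wild-type replicate 1, 2, 4 or 5. With the atrial score in the fit, none of these 7 calls was kept, and the differences were 0.74 for Dnaic1, 0.46 for Phf24, 0.38 for Ube2r2, -0.65 for B4galt1, -0.58 for Glipr2, 0.85 for Olfr159 and 0.69 for Fancg. Without a filter on dim probes none of the 7 was kept either. With the replicate number as a block, none of the 5 that were higher in knockout was kept.

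Most well-known genes of the stretch showed small differences. A list of 16 such genes had 33 kept probes, of which 1, the B4galt1 probe above, passed and 32 did not. Their differences ran from -0.95 (Ccl19) to 0.57 (Cntfr), with a median of 0.05. Vcp, an ATPase of protein quality control, had 4 probes between -0.09 and 0.27. Tln1, which links integrins to actin, had -0.12 ± 0.09 on its bright probe, and Npr2, the receptor for C-type natriuretic peptide, had 0.05 ± 0.13 and 0.15 ± 0.07. The mitochondrial complex I subunit Ndufb6 differed by 0.14 ± 0.11, the glycerol channel Aqp7 by 0.03 ± 0.14 and -0.35 ± 0.12, and the viral RNA sensor Ddx58 by -0.29 ± 0.12, -0.26 ± 0.17 and 0.29 ± 0.72.

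At the edges of the stretch, the first kept members were 2 probes of Aco1, the cytosolic aconitase, with differences of 0.02 ± 0.23 and -0.05 ± 0.11, and the last were Glipr2, given above, and Ccin at 0.16 ± 0.11. Below the stretch the nearest kept probes lay far off, LOC105247169 at 37086077 with 0.04 ± 0.11 and ENSMUST00000119012 at 38211304 with 0.19 ± 0.11. Just above it, Clta had 0.01 ± 0.10 and Gne had -0.04 ± 0.09.

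Without a filter on dim probes, the differences were unchanged and Fam205a2 and 4933409K07Rik stayed past the threshold while Ccl21a and Gm13304 did not. When only probes well above background on all 10 arrays were used, the Fam205a set members that were at background in knockout were left out by construction, and Ccl21a and Gm13304 lay past it at 0.84 and 0.65. Over all settings run, Ccl21a lay between 0.72 and 0.97 and Gm13304 between 0.55 and 0.75.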

How the data were processed

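Total RNA from 10 cardiac samples was hybridised to 1-colour Agilent arrays. The deposited files hold spot intensity, which per the file headers was background-subtracted within each array by the scanner software (Agilent Feature Extraction 10.7.1.1, per the submitters' processing notes). The authors also deposited a log2 value table whose normalization is not given in the sources used here; with probe means removed, its columns matched their own arrays at r of 0.918 to 0.996 over 30677 probes, against at most 0.51 for other arrays. It served as an alternative, and its background treatment stays unknown.

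Each array's log2 intensity was set relative to its 75th percentile over 59305 non-control spots. Outlier spots were dropped and spots of a probe averaged, giving 56605 probes, of which 30693 were kept. RefSeq accessions named 32994 probes and the array file the other 23611. Genotype was the only term in the limma 3.58.1 fit (R 4.3.3), with Benjamini-Hochberg adjustment over all kept probes. Array scores had an exact two-sided permutation test with 252 arrangements. Tested on simulated data for this comparison (30677 probes, 200 changed), the fit recovered 0% of probes changed by 0.5 on the log2 scale, 77% at 1 and 95.5% at 2. Far fewer probes were changed there than the 1364 that passed in the real fit. The adjusted threshold depends on that number, so these rates do not describe the real fit.

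Members, lists and alternatives were chosen with earlier results of these data known. Named probes are those called Fam205a2 or Ccl21a, kept duplicated-family probes, other kept probes past the threshold without overlap (clone names aside), the edge probes and kept probes of 16 chosen genes.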

Additional observations from a re-analysis of the deposited data

Results flagged for a closer look

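In 158 groups of 5 arrays examined, from the named probes and the array scores, 10 held 1 sample far from the other 4. Chance alone gives about 1 in 20. In knockout, replicate 5 read -0.54 on a dim Ddx58 probe (40170969) where the others read -5.04 to -4.20. Knockout replicate 4 read -3.35 on a dim Dnaja1 probe (40683501), with the others at -4.17 to -3.96, and wild-type replicate 1 read -3.58 on the same probe, with the others at -4.28 to -4.13. Knockout replicate 3 read -0.40 on the second B4galt1 probe (40756756), above -1.18 to -1.04.

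Wild-type replicate 3 read -4.60 on the Cntfr probe (41604532), below -3.85 to -3.78, and 3.61 on a Vcp probe (42995765), above 3.33 to 3.40. Wild-type replicate 1 read -6.66 on the second Fam205a2 probe (41838111), below -5.08 to -4.63, and wild-type replicate 4 read -2.92 for Gm3893, below -2.24 to -2.0. Knockout replicate 3 had a lymphatic endothelial score of -0.74, below -0.41 to -0.30, and a germ cell and testis score, here Tnp1 alone, of -3.49, above -4.08 to -3.95.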

How the results depend on the processing

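The number of probes past the threshold depended strongly on the processing, and the direction of the called members did not reverse under any alternative run. Across the array 1364 probes passed, against 78 when the atrial score was a covariate, 220 with no filter on dim probes, 4517 with normexp background correction (3423 higher in knockout), 239 with the replicate number as a block, 522 among slide 2 arrays only and 2079 with the lymphatic score as a covariate, which was added after seeing the data, as was slide row as a block. With an array left out the count was 302 to 1224, and it fell by over 1.5 times without knockout replicate 1 (648), 2 (494) or 4 (617) or wild-type replicate 2 (403), 4 (355) or 5 (302). In the stretch 12 passed, against 2 with the atrial score, 2 with no filter, 21 with normexp, 4 with the replicate block, 5 within slide 2, and 7 to 13 with an array left out (7 without wild-type replicate 4 or 5). For duplicated-family names 3 passed, against 1 with the atrial score, 1 with no filter, 1 with the replicate block, 1 within slide 2, and 1 to 3 with an array left out (1 without knockout replicate 1 or 2 or wild-type replicate 3, 4 or 5). For other names 9 passed, against 1 with the atrial score, 1 with no filter, 17 with normexp, 3 with the replicate block, 4 within slide 2, and 6 to 10 with an array left out. The median difference of the kept members, 0.036, was 0.128 with no filter, where all probes had a median of 0.223, and 0.021 to 0.079 with an array left out. The cause of these changes was not tested. Fits within slide 2 and with an array left out also held fewer samples. Same-numbered arrays did not deviate together (r of -0.0964 to 0.06), which cannot settle whether the numbers pair the samples. The labels do not say what the numbers mean. Faint signal limits part of the Fam205a set. The kept Fam205a2 probe, 4933409K07Rik and ENSMUST00000177565 were well above background on no knockout array, and Gm3893 on 1. Gm21075 and Gm4262 were so on all 5.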
